A study of Mus musculus with 17 samples.

Results

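The Nduf genes encode most subunits of mitochondrial complex I and part of the machinery that assembles it. The set described here holds the 46 protein-coding mouse genes whose symbol starts with Nduf in GENCODE M21, out of 54838 gene rows in each count table. No measured value was used to choose them. They comprised 7 core subunits, 9 accessory subunits of the matrix arm, 9 of the proximal and 10 of the distal membrane arm, the acyl carrier protein Ndufab1, the pair Ndufa4 and Ndufa4l2, and 8 assembly factors. Of the 46, 45 passed the filter on low counts. Ndufa4l2 did not, with 8 reads over all libraries, 6 of them in old control 1.

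RNA sequencing was done on haematopoietic stem cells (HSCs), sequenced in bulk, from the mouse strain C57BL/6 Jrj. The cells were sorted as CD150+ CD48- cells within the lineage-negative, Sca1+ and cKit+ fraction of bone marrow. The 17 libraries fell into 4 groups. Young control mice (n = 4) and young mice given CCCP (n = 5) were 8 to 12 weeks old, and CCCP, an uncoupler that carries protons across the inner mitochondrial membrane, was injected intraperitoneally 1 time at 0.3 mg/kg. Old control mice (n = 3) and old mice given Mito-Q (n = 5) were over 18 months old, and Mito-Q, a ubiquinone-type antioxidant that accumulates in mitochondria, was injected intraperitoneally on 5 days at 2 mg/kg. Vehicle injections of the controls, the time from the last injection to collection and whether each library came from its own mouse were not given in the sources used here. A p-value here sets a difference against the spread between libraries only, and that spread may be technical.

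Complex I takes electrons from NADH at a flavin in the matrix arm, passes them along a chain of iron-sulfur clusters to ubiquinone, and pumps protons through the membrane arm. The nuclear core subunits carry the flavin and the clusters, the core subunits of the membrane arm are encoded by mitochondrial DNA, and the accessory subunits stabilise the whole. Quiescent HSCs are known for relying less on respiration than their progeny do. Ndufa4 was first assigned to complex I and is now placed in complex IV.

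The libraries held 5649611 to 8120443 reads assigned to genes, and Nduf genes took 0.3693% to 1.0847% of them. A floor of 3 reads corresponded to 0.369 to 0.531 CPM (counts scaled to the plain gene total), for counting error only. All other CPM values carry TMM factors, which adjust library sizes for composition. Some libraries stood apart from the rest. The median Spearman correlation with the other libraries was 0.682 in young CCCP 3, 0.7987 in old control 1 and 0.8027 in young control 3, against 0.828 to 0.8633 in the other 14. Reads assigned to no gene made up 76.2% of young CCCP 3 and 68.8% of old control 1, but 37.7% and 38.9% of old controls 2 and 3. The markers of the sorting gate were present, with a summed level of 1572 to 4266 CPM over 8 genes. The summed level of 10 neutrophil and granule genes ran from 416 to 2198 CPM in young controls, 762.3 to 16320 in young CCCP, 1089 to 2393 in old controls and 982.8 to 14230 in old Mito-Q, with none of the 10 at 0 in all libraries. The part of these differences in the Nduf values was not tested, and in bulk libraries a change in which cells were collected cannot be told apart from a change in RNA per cell.

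Per kilobase of the principal transcript, Nduf levels covered a wide range. The highest means over the 17 libraries were those of Ndufa4 at 697 CPM per kb, Ndufa7, a matrix arm accessory subunit, at 416, and Ndufa3, a small membrane arm subunit, at 406. The lowest were Ndufaf4, an assembly factor of the ubiquinone-binding module, at 13.8 CPM per kb, Ndufb2 at 5.61 and Ndufa4l2 at 0.06. Ndufa7 and Ndufa3 did not differ beyond their spread, which in young controls alone was 438.6 ± 347.8 and 479.9 ± 434.6 CPM per kb (SD, n = 4). Core subunits ran from 39.2 CPM per kb for Ndufs1 to 340.0 for Ndufs7, and assembly factors from 13.8 to 69.2 for Ndufaf8. The order depended on the length used: with the summed exons of all transcripts, Ndufa7 moved from place 2 to place 14 and Ndufb7 from place 6 to place 32. Exons of 19 members overlap another gene. The overlap covered more than 10% of the exonic bases of 7 members. It was on the opposite strand for 65.6% of Ndufaf2, 39.0% of Ndufb6, 30.0% of Ndufa13, 12.9% of Ndufb11, 12.3% of Ndufb5 and 11.5% of Ndufa2, and on the same strand for 19.5% of Ndufb9. Whether counting used strand, and how reads in shared bases were assigned, is not given in the sources used here, so the levels of these 7 genes are uncertain.

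Summed over the 46 genes, Nduf transcripts reached 4140, 4744, 10450 and 3915 CPM in young controls 1 to 4. In young CCCP libraries 1 to 5 the sums were 3274, 3645, 4840, 4313 and 3900 CPM. In old controls 1 to 3 they were 4465, 9660 and 12440 CPM, and in old Mito-Q libraries 1 to 5 they were 5351, 5681, 8976, 5270 and 4839 CPM. Old controls 2 and 3, young control 3 and old Mito-Q 3 were thus high, while the other 13 libraries lay between 3274 and 5681 CPM, and every pair of groups overlapped, young CCCP and old Mito-Q only at 4840 and 4839 CPM. Those 4 high libraries also held the highest value of 42 of the 46 genes.

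**Figure D1:**
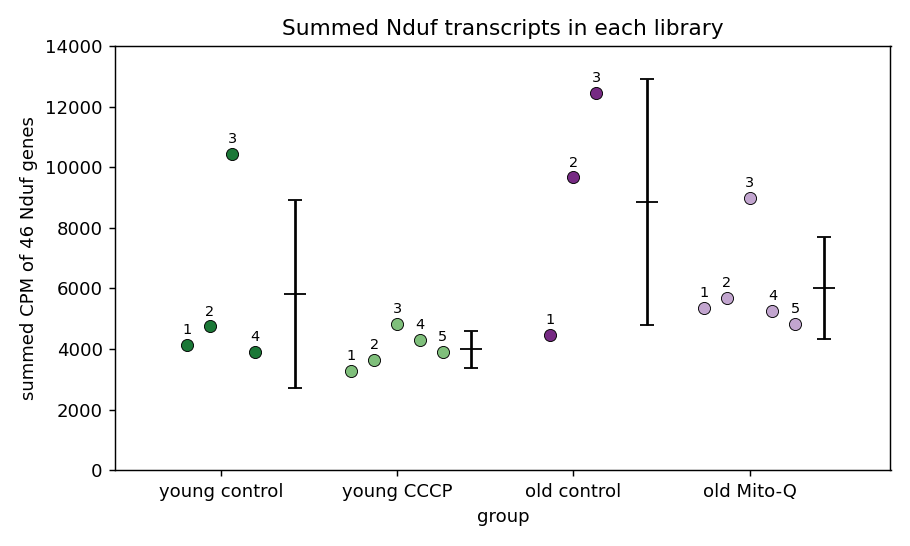
Summed CPM of the 46 Nduf genes (vertical axis, from 0) in each of the 17 libraries by group (horizontal axis), with replicate numbers above the points and the group mean ± SD as a bar at the right of each group. Young control 3 at 10450, old controls 2 and 3 at 9660 and 12440 and old Mito-Q 3 at 8976 CPM stand above the other libraries, which lie between 3274 and 5681 CPM.

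HSCs of old controls had higher estimated levels of nearly all Nduf genes than HSCs of young controls, but no member passed the test. The log2 fold change was positive for 44 of 45 members, with a median of 0.63, beside a median of 0.16 over all 24523 genes tested. With a transcript-length trend fitted per library and carried as an offset, a setting chosen after the data were seen, 20 of 45 were positive and the median was -0.06. Over all genes edgeR's quasi-likelihood test called 1.69% at a Benjamini-Hochberg adjusted p below 0.05. It called 0 of the 45 members, while 10 of the 45 had an unadjusted p below 0.05, beside 14.2% of all genes. DESeq2 called 3 members, Ndufs4 and Ndufs7 as higher and Ndufs1 as lower, beside 7.08% of all genes. Of the cell markers, the 10 neutrophil and granule genes had a median of 0.74, with 6 positive and 4 negative. EdgeR called 1 of them as higher in old controls. Their part in the Nduf values was not tested.

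Among the 7 core subunits, the iron-sulfur subunit Ndufs7 (chr10:80249121-80256794), which holds the cluster next to ubiquinone, read 262.4, 269.4, 368.8 and 220.3 CPM in young controls 1 to 4 and 224.2, 622.8 and 870.4 CPM in old controls 1 to 3. Old controls 2 and 3 lay above every young control and old control 1 lay among them. The estimate was a 2.04-fold higher level in old controls, a log2 fold change of 1.03 ± 0.33 (SE; edgeR adjusted p = 0.128). It was 0.60 without old control 3, and over the 19 alternatives it ran from 0.20 with the length offset to 1.60 without 3 libraries, with 5 calls and adjusted p from 8.74e-05 to 0.886. Ndufv2, an iron-sulfur subunit near the flavin, had a log2 fold change of 0.86 ± 0.37 (adjusted p = 0.285), again with old control 1, at 172.2 CPM, inside the young range of 162.1 to 359.2 CPM. Ndufs3 at 0.64 ± 0.33 and Ndufs8 at 0.58 ± 0.34, which like Ndufs7 belong to the ubiquinone-binding module, had smaller estimates. Ndufv1, the flavin-binding subunit, was estimated at 0.23 ± 0.41.

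Ndufs1 (chr1:63143596-63176833), the largest core subunit, went the other way. It read 132.3, 119.2, 114.4 and 141.4 CPM in young controls 1 to 4 and 75.5, 68.4 and 89.5 CPM in old controls 1 to 3. All 3 old libraries lay below all 4 young ones. Ndufs1 was the single member lower in this way, against 6.5% of all genes. In the other direction 0 members were separated, and the share of all genes there is not given here. The log2 fold change of Ndufs1 was -0.71 ± 0.29 (edgeR adjusted p = 0.269). Over the 19 alternatives it ran from -0.85 to -0.26, with adjusted p from 0.027 to 0.71 and 2 calls, by DESeq2 and by limma-voom with sample weights. In old Mito-Q libraries 1 to 5 Ndufs1 read 76.0, 117.0, 97.7, 91.6 and 86.0 CPM, overlapping the old controls and in 1 library the young ones.

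Of the accessory subunits, Ndufs4 (chr13:114287795-114388258), a matrix arm subunit whose loss causes a Leigh-like disease in mice, had the smallest p of all members. Its level was 77.9, 99.6, 124.2 and 75.2 CPM in young controls 1 to 4 and 123.3, 256.5 and 251.6 CPM in old controls 1 to 3, so that old control 1 fell just under young control 3. The log2 fold change was 1.16 ± 0.34, a 2.23-fold difference (edgeR adjusted p = 0.0917), with estimates from 0.58, with the length offset, to 1.62 and adjusted p from 0.00017 to 0.703 over the 19 alternatives, 6 of which called it. In the membrane arm, the distal subunit Ndufb11 had a log2 fold change of 0.99 ± 0.38 (adjusted p = 0.22) and the proximal subunit Ndufa10 one of 0.73 ± 0.31 (adjusted p = 0.274). Median log2 fold changes were 0.58 in the matrix arm, 0.50 in the proximal and 0.67 in the distal membrane arm, with every member of these groups positive. Ndufab1, the mitochondrial acyl carrier protein, was estimated at 0.63 ± 0.40 and Ndufa4 at 0.27 ± 0.48.

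The assembly factors had a median of 0.70, with all 8 positive. Ndufaf3 (chr9:108565537-108567434), which works with Ndufaf4 on the ubiquinone-binding module, had the largest estimate of any member in this comparison. It read 22.7, 17.3, 42.4 and 27.5 CPM in young controls 1 to 4 and 17.7, 77.7 and 152.6 CPM in old controls 1 to 3. Old control 1 was near the bottom and old control 3 at the top of all these libraries, and the log2 fold change was 1.59 ± 0.52 (edgeR adjusted p = 0.139). It was 0.81 without old control 3, 2.13 without old control 1 and 0.83 with the length offset, and 5 of the 19 alternatives called it (adjusted p from 0.000914 to 0.662).

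**Figure D2:**
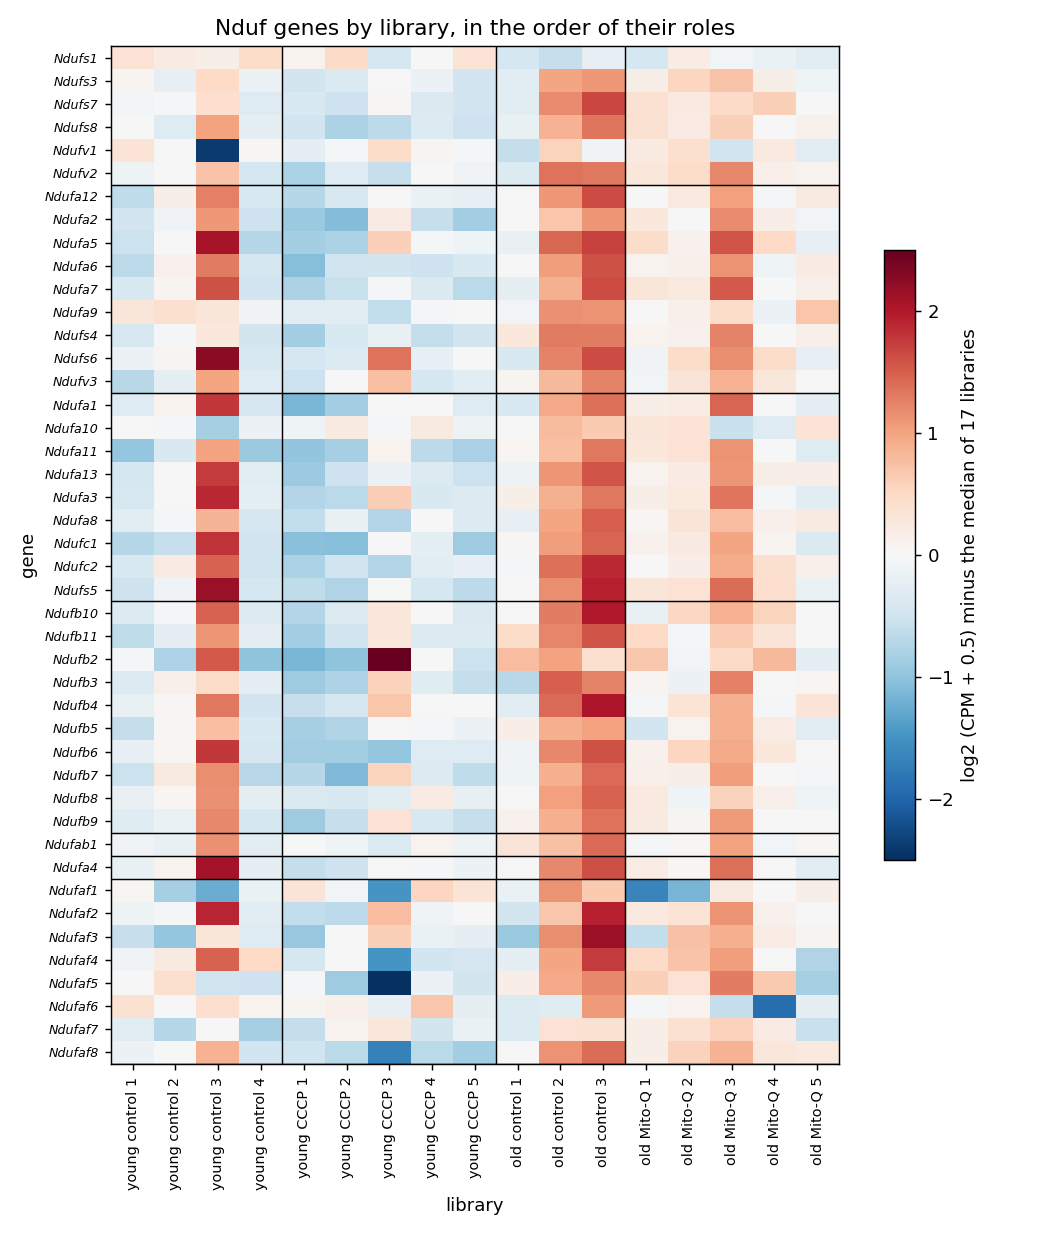
Deviation of 44 tested Nduf genes (rows, grouped by role with lines between the roles) from its own median over 17 libraries (columns, grouped by condition), on the log2 (CPM + 0.5) scale. Red columns for young control 3, old controls 2 and 3 and old Mito-Q 3 run through nearly all rows, with Ndufs1 and Ndufv1 near the top as departures.

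The old comparison turned on single libraries. Without old control 1, edgeR called 4 members as higher in old controls, Ndufaf3, Ndufs4, Ndufs7 and Ndufv2, beside 1.5% of all genes called as higher, and the median over members was 0.97. Without young control 3 it called 4 others, Ndufa11, Ndufb10, Ndufb11 and Ndufc1, beside 0.621% of all genes, and the median was 1.17. Without old control 3 none was called and the median was 0.34. Without old control 1 and young CCCP 3, the 2 libraries of lowest correlation, it called 7 as higher, beside 2.51% of all genes, whereas limma-voom with sample weights on all libraries called 36 as higher and Ndufs1 as lower, beside 13.4% of all genes called in either direction. With young control 3 left out as well, a setting chosen after the data were seen, 35 of 45 members were called as higher, beside 5.49% of all genes. The median was then 1.5 over members and -0.40 over all genes.

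Old mice given Mito-Q had lower estimated levels than old controls for 42 of 45 members, with a median log2 fold change of -0.60 beside -0.12 over all genes. With the length offset 14 of 45 were positive and the median was -0.12. EdgeR called 0 members, beside 0.542% of all genes, and 5 members had an unadjusted p below 0.05, beside 10% of all genes. DESeq2 called 0 of 44, beside 2.51% of all genes. All of these values share the 3 old controls with the age comparison, so the opposite signs of the 2 comparisons are not independent of each other. Markers of other cells also differed: 10 neutrophil and granule genes had a median of 2.43, with 9 positive, and 5 mast cell and basophil genes 2.56, with 5 positive. The mast cell and basophil genes summed to 6.19 to 29.89 CPM in old controls and 13.49 to 242.3 CPM under Mito-Q, and edgeR called none of these 15 genes. Their part in the Nduf values was not tested.

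Ndufb11 had the smallest p. It read 153.1, 259.9 and 329.6 CPM in old controls 1 to 3 and 156.1, 106.9, 172.7, 137.8 and 110.7 CPM in old Mito-Q libraries 1 to 5. Only old control 1 lay within the Mito-Q range, and the log2 fold change was -0.85 ± 0.36 (edgeR adjusted p = 0.41), with -0.58 without old control 3 and -0.34 with the length offset. Of the core subunits, Ndufs7 had the largest estimate at -0.71 ± 0.31 (adjusted p = 0.446), with Mito-Q levels of 357.6, 322.7, 384.0, 415.5 and 274.2 CPM, all between old control 1 and old control 2. That estimate was -1.15 without old control 1, -0.27 without old control 3 and -0.15 with the length offset. Ndufs8 was at -0.52 ± 0.32, Ndufv2 at -0.47 ± 0.35 and Ndufs3 at -0.41 ± 0.31. Ndufv1 at 0.03 ± 0.40 and Ndufs1 at 0.27 ± 0.28 were among the 3 positive members.

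Among accessory subunits, the membrane arm subunit Ndufc2 was at -0.90 ± 0.40 (edgeR adjusted p = 0.447) and the matrix arm subunit Ndufs4 at -0.63 ± 0.33 (adjusted p = 0.537). Ndufab1 was at -0.65 ± 0.38 and Ndufa4 at -0.68 ± 0.45. The assembly factor Ndufaf1, which acts on the membrane arm, was at -0.95 ± 0.49 (adjusted p = 0.531), with Mito-Q levels from 11.8 to 44.6 CPM and old control levels from 33.9 to 83.6 CPM. Medians of the subunit groups and assembly factors lay between -0.41 for the core and -0.63 for the distal membrane arm and the assembly factors. In every Mito-Q library 0 members were lower than in every old control, beside 2.2% of all genes. In the other direction 0 members were separated either, and the share of all genes there is not given here. Without old control 1 the median was -0.97, and without old control 3 it was -0.21, with 0 members called either way. With the 3 libraries of lowest weight left out, 13 members were called as lower, beside 2.51% of all genes. Without old control 1 and young CCCP 3 it was 1 member, Ndufs7, beside 0.639%, and with limma-voom and sample weights 17, beside 3.09%.

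Young mice given CCCP had lower estimated levels than young controls for 38 of 45 members, with a median log2 fold change of -0.52, whereas the median over all genes was 0.21. EdgeR called 0 members, beside 0.718% of all genes, and 13 members had an unadjusted p below 0.05, beside 11.2% of all genes. That count of 13 became 0 without young control 3 and 0 with limma-voom and sample weights. With the length offset it was 12. The share of all genes at such a p in these other fits is not given here. DESeq2 called 0 of 44, beside 3.34% of all genes. Without the filter on low counts, edgeR called Ndufa4 as lower (adjusted p = 0.0487), beside 0.464% of all genes called as lower. Markers of other cells moved in the same comparison. The 10 neutrophil and granule genes had a median of 3.70, all positive and 1 called by edgeR. The 6 monocyte and macrophage genes had a median of 2.06, with 5 positive, and summed to 13.92 to 35.35 CPM in young controls and 18.25 to 247.3 CPM under CCCP. The 8 erythroid genes had a median of 1.29, all positive, with sums of 73.79 to 241.6 and 148.3 to 1370 CPM. No gene of these last lists was called, none was at 0 in all libraries, and their part in the Nduf values was not tested.

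Ndufb6 (chr4:40270591-40279421), a distal membrane arm subunit, had the smallest p. It read 38.2, 45.98, 153.4 and 33.1 CPM in young controls 1 to 4 and 24.0, 24.1, 22.6, 35.3 and 35.7 CPM in CCCP libraries 1 to 5. Young control 3 was high, and the other young controls lay close to the CCCP range. The log2 fold change was -1.25 ± 0.42 (edgeR adjusted p = 0.26), and without young control 3 it was -0.48 ± 0.37 (adjusted p = 0.878).

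Ndufaf8, the partner of the assembly factor Ndufaf5, and Ndufs8, an iron-sulfur core subunit, were the 2 members lower in every CCCP library than in every young control, a pattern held by 2.89% of all genes. Ndufaf8 read 41.4, 46.1, 84.9 and 33.1 CPM in young controls 1 to 4 and 32.4, 28.7, 14, 28.8 and 25.0 CPM in CCCP libraries 1 to 5. The gap between the lowest control and the highest CCCP library was narrow, and the log2 fold change was -0.99 ± 0.36 (edgeR adjusted p = 0.303). Ndufs8 read 224.5, 178.9, 451.3 and 189.4 CPM in young controls and 161.4, 129.1, 141.9, 177.6 and 156.0 CPM in CCCP libraries. Its log2 fold change was -0.77 ± 0.30 (adjusted p = 0.353). Without young control 3, Ndufaf8 was at -0.65 and Ndufs8 at -0.39.

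Other core subunits lay nearer to 0. Ndufv2 was at -0.43 ± 0.33, Ndufs3 at -0.37 ± 0.29, Ndufs7 at -0.36 ± 0.29 and Ndufs1 at -0.17 ± 0.25. Ndufv1 at 0.26 ± 0.37 was positive. It was low in young control 3, where most of the set was high: it read 33.5 CPM there and 177.1 to 225.3 CPM in the other young controls.

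The proximal membrane arm had the lowest median of the subunit groups, -0.92, beside -0.63 in the matrix arm, -0.48 in the distal membrane arm and -0.31 among assembly factors. Ndufa13, a proximal subunit also known as Grim19, was at -1.04 ± 0.39 (edgeR adjusted p = 0.329) and the matrix arm subunit Ndufa6 at -0.86 ± 0.37 (adjusted p = 0.393). Ndufa4 read 264.3, 319.0, 1263 and 255.5 CPM in young controls 1 to 4 and 197.3, 209.4, 297.3, 288.2 and 270.8 CPM in CCCP libraries 1 to 5. Only young control 3 stood above the rest. The log2 fold change of Ndufa4 was -1.06 ± 0.42 (adjusted p = 0.363), and without young control 3 it was -0.17 ± 0.35 (adjusted p = 0.974). Over all members the median without that library was -0.10, with 15 of 45 positive.

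**Figure D3:**
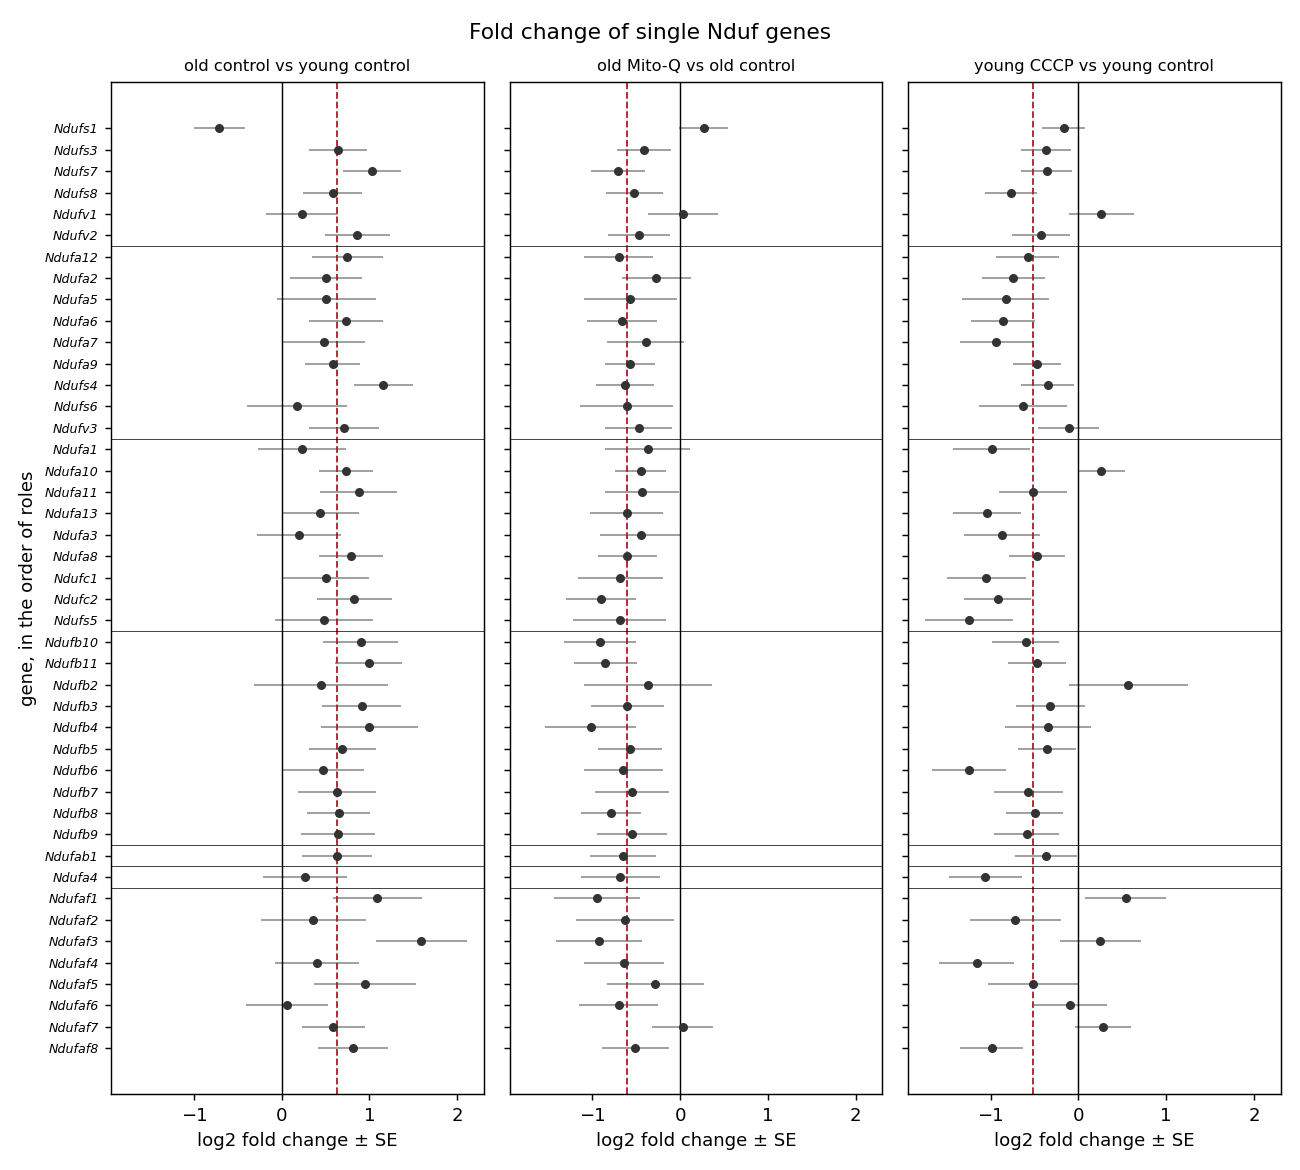
Log2 fold change ± SE (horizontal axes) of 44 tested Nduf genes in the order of their roles, in old control against young control, old Mito-Q against old control and young CCCP against young control. Dashed lines mark the medians over all 45 tested members, 0.63, -0.60 and -0.52, and Ndufs1 at -0.71 is the one negative gene in the first panel.

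Old Mito-Q and young control libraries were close for this gene set in the fit on all libraries, but not without young control 3. The median log2 fold change was 0.08 beside 0.01 over all genes, with 27 members positive and 18 negative. EdgeR called 0 of 45, beside 0.143% of all genes, and 0 members had an unadjusted p below 0.05, beside 7.89%. DESeq2 called 0 of 44, beside 1.14% of all genes. Without young control 3 the median was 0.59, beside 0.00 over all genes, with 41 of 45 members positive and 10 at an unadjusted edgeR p below 0.05. Without the 3 libraries of lowest weight 26 members had such a p. The share of all genes at such a p in these fits is not given here, so neither count can be set against it. EdgeR called 0 members in both fits, beside 0.127% and 0.459% of all genes. The summed level was 6023 ± 1678 CPM (SD, n = 5) in old Mito-Q and 5812 ± 3110 CPM (n = 4) in young controls. Young controls 1, 2 and 4, at 4140, 4744 and 3915 CPM, lay below every Mito-Q library, of which the lowest was 4839 CPM. A difference that misses the threshold does not show that the groups are alike. Cell markers also differed between these groups. The 10 neutrophil and granule genes had a median of 3.15 in old Mito-Q against young controls, all positive and 1 called by edgeR. Of the 8 genes of the sorting gate, 4 were positive and 4 negative, and 1 was called as higher. Their part in the Nduf values was not tested.

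Other parts of complex I and of the respiratory chain had estimates of the same sign in part. No gene of these lists was called in the 3 comparisons. The 7 complex I subunits of mitochondrial DNA summed to 2262, 2684, 11500 and 2012 CPM in young controls 1 to 4 and 1176, 1547, 1698, 2176 and 2137 CPM in CCCP libraries 1 to 5. Young control 3 was far above all the others. Their median log2 fold change under CCCP was -1.51, and 6 of the 7 had an unadjusted p below 0.05, led by mt-Nd2 at -1.69 ± 0.48 (edgeR adjusted p = 0.146). In old against young controls all 7 were negative, with a median of -0.39, while 44 of 45 Nduf genes were positive. Their sums were 1803, 4178 and 3952 CPM in old controls 1 to 3. Old controls 2 and 3 thus lay above young controls 1, 2 and 4, and only young control 3 lay above them. Under Mito-Q the median of these 7 genes was 0.01.

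Among 14 tested assembly factors of complex I with other names, the median was 0.71 in old against young controls, -0.44 under Mito-Q and 0.10 under CCCP. Dmac1, which acts in the assembly of the distal membrane arm, was nearest to a call in the age comparison at 1.57 ± 0.42 (edgeR adjusted p = 0.0541). It read 30.2, 24.8, 28.7 and 29.2 CPM in young controls and 38.3, 90.8 and 122.4 CPM in old controls, with no overlap. The share of all genes higher in the same way is not given here. For age, Mito-Q and CCCP in that order, the medians were 0.72, -0.46 and -0.29 for complex II, 0.39, -0.39 and -0.83 for complex III, 0.51, -0.49 and -0.87 for nuclear complex IV and 0.37, -0.51 and -0.69 for the nuclear ATP synthase. Uqcrfs1, the Rieske iron-sulfur protein of complex III, was nearest to a call under CCCP at -1.15 ± 0.29 (adjusted p = 0.0615).

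Nduf transcripts are short, and the estimates moved with transcript length over all genes. The bins and the minimum mean level of 5 CPM used here were chosen after the data were seen. The principal transcripts of the 45 members had a median of 983 bases, beside 3062 bases over 11199 genes, and 75.6% of members were at most 1500 bases long, beside 14.7% of those genes. In old against young controls, the 644 genes of up to 1000 bases had a median log2 fold change of 0.69, the 23 members among them 0.64, and genes over 5000 bases -0.40. Under Mito-Q the same 3 medians were -0.56, -0.61 and 0.25, and under CCCP they were -0.51, -0.72 and 0.15. Longer members did not all lie near the genes of their length. The 11 members of over 1000 and up to 1500 bases had a median of 0.64 for age, beside 0.68 over all genes of that length, and the 6 of over 1500 and up to 2000 bases 0.65, beside 0.29. The 3 members of over 3000 and up to 5000 bases had medians of 0.45 for age, -0.64 for Mito-Q and -0.37 for CCCP, beside -0.34, 0.25 and 0.12.

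With the median of its length bin subtracted from each member, the median over members was 0.04 for age, -0.12 for Mito-Q and -0.20 for CCCP, with 24, 13 and 14 of 45 positive. With the length trend as an offset, fitted on the 16797 tested genes that have a principal transcript length, the medians were -0.06, -0.12 and -0.48, with 20, 14 and 7 positive. EdgeR then called 0 members in each, beside 1.35%, 0.554% and 1.48% of all genes. With that offset and the 3 libraries of lowest weight left out, the medians were 0.58, -0.40 and -0.18. In that fit 9 members were called as higher in old controls, beside 4.77% of all genes (Ndufa13, Ndufab1, Ndufaf3, Ndufaf4, Ndufb2, Ndufc1, Ndufs4, Ndufv2 and Ndufv3), and 2 as lower under Mito-Q, beside 1.74% (Ndufab1 and Ndufaf4). Both settings were chosen after the data were seen.

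**Figure D4:**
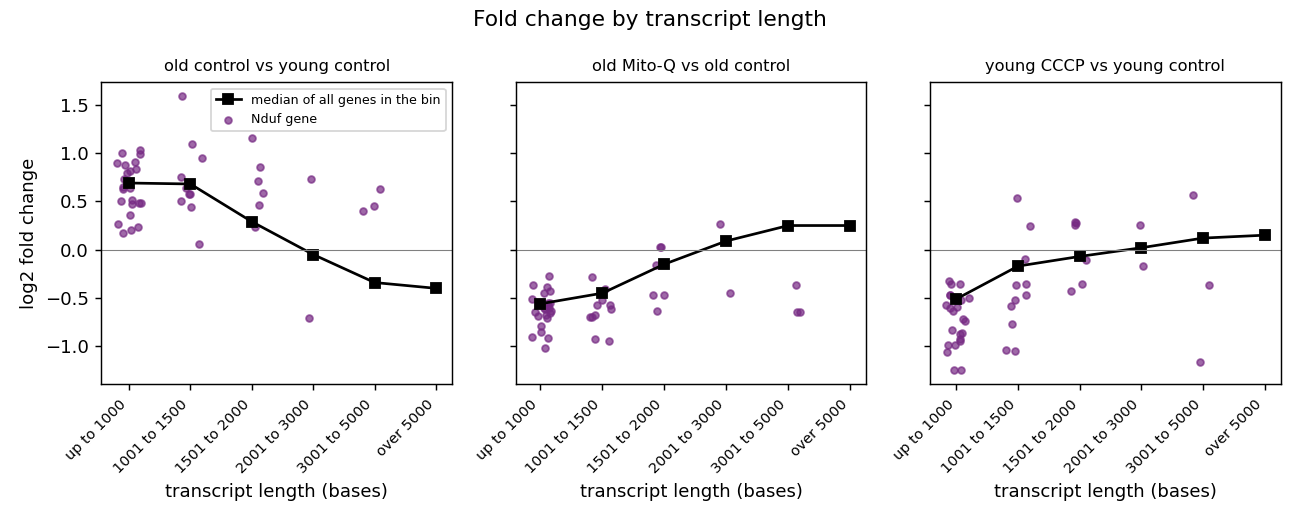
Log2 fold change (vertical axis) by bin of principal transcript length (horizontal axis) in 3 comparisons, with the median of all genes of a bin as black squares and Nduf genes as points, spread sideways within a bin for sight. The squares run from 0.69 to -0.40 in the age comparison and from -0.56 to 0.25 under Mito-Q, and the Nduf genes lie mostly in the 2 shortest bins.

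The same relation held per library. As the median deviation from each gene's median over libraries, on the log2 scale, members stood at 1.40 in old control 3, 1.11 in young control 3, 1.00 in old control 2 and 0.95 in old Mito-Q 3. All genes with transcripts of up to 1000 bases stood at 1.40, 0.89, 1.04 and 0.98 in those 4 libraries, and genes over 5000 bases at -0.51, 0.11, -0.60 and -0.02. In young CCCP 1 members were at -0.64 and all short genes at -0.60. The 23 shortest members are part of the short genes they are set beside.

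**Figure D5:**
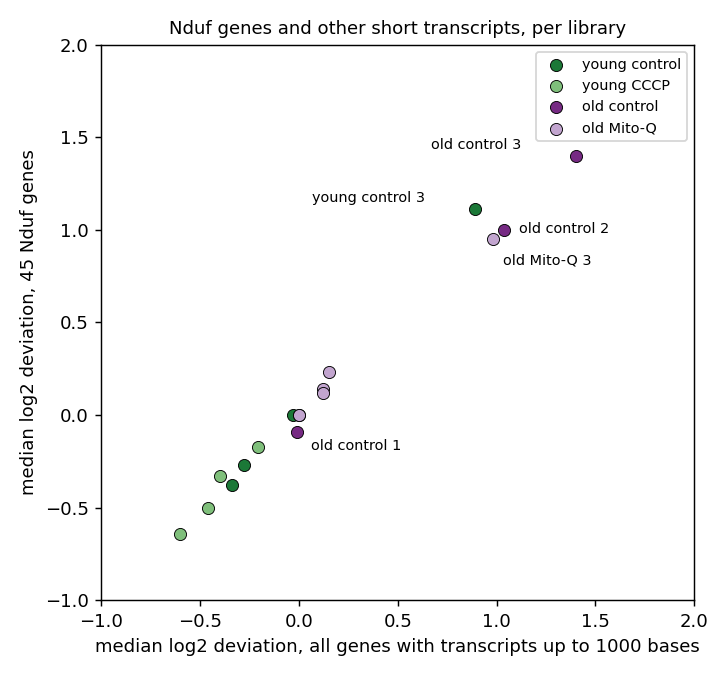
Median log2 deviation of the 45 Nduf genes (vertical axis) against that of all genes with principal transcripts of up to 1000 bases (horizontal axis), 1 point per library, coloured by group. The points lie near the diagonal, from -0.60 and -0.64 in young CCCP 1 to 1.40 and 1.40 in old control 3.

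Most members varied together over the libraries. Pearson's r of each member's log2 CPM with the median of the other members, over 17 libraries and given as a description, had a median of 0.92 and was above 0.8 for 33 of 45 members. The highest was 0.98, for Ndufa12 and Ndufa13. It was below 0.3 for 6 members. These included the core subunits Ndufs1 at -0.43 and Ndufv1 at -0.33, the membrane arm subunit Ndufa10 at 0.04, and the assembly factors Ndufaf1 at 0.06 and Ndufaf6 at 0.11. The points share library depth and the length relation above. Length separated these values in part. The 23 members with principal transcripts of up to 1000 bases all had an r of 0.81 or more. Among the longer members r ran from -0.43 to 0.98. Those below 0.3 had principal transcripts of 1082 bases, in Ndufaf6, to 2661 bases, in Ndufs1, while Ndufab1 with 3479 and Ndufaf4 with 3632 bases had an r of 0.88 and 0.76.

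The promoters of the members were searched for binding motifs on both strands. RefSeq promoters on GRCm38.p6, which span 250 bases before to 50 bases after a start site, were matched for 40 of the 46 members, with 42 promoters in all. The motif AANATGGCG, of the kind bound by YY1, was found in 8 of 42 (19%), beside 2.38% of all 32851 promoters. The sites are shown with 8 bases on either side where the window allows, motif in capitals, positions counted from the start site as 1, with the base before it as -1.

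Ndufs7, 25 to 33, chr10:80249465-80249489, + strand: ccgaggccAAGATGGCGgcgctggc
Ndufs4, 36 to 44, chr13:114388045-114388067, - strand: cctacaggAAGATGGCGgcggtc
Ndufs6, 34 to 42, chr13:73328433-73328457, - strand: tcaccggcAAGATGGCGgcggtgct
Ndufa9, 30 to 38, chr6:126849099-126849123, - strand: tgtgggagAAGATGGCGgccgccgt
Ndufc1, 23 to 31, chr3:51408917-51408941, - strand: tgcggaacAAGATGGCGccgtccgt
Ndufaf8, 11 to 19, chr11:120098936-120098960, + strand: cagggcccAAGATGGCGgcgccctc
Ndufa7, -18 to -10, chr17:33824619-33824643, + strand: gcggaaggAATATGGCGtccgctac
Ndufb11, -211 to -203, chrX:20617814-20617838, - strand: accaacacAAAATGGCGacgagaag

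All 8 matches read in the direction of the gene, and 6 of them lie within the first 44 bases after the start site. Each of these 6 has the letters AAGATGGCG. The Ndufa7 site lies inside the annotated gene, which starts at chr17:33824572, since its position is counted from a later start site. The motif itself holds the letters ATG, and whether these sites overlap the start of the coding sequence was not tested. Ndufs4 and Ndufs7, the 2 members of smallest p in old against young controls, are among the 6 genes with a site after the start. The others, Ndufaf8, Ndufa9, Ndufc1 and Ndufs6, had unadjusted edgeR p-values of 0.056, 0.0713, 0.329 and 0.771. A relation of the motif to the estimates was not tested.

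The motif GCGCATGCG, of the kind bound by NRF1, a factor known to act on respiratory chain genes, was found in 4 of 42 promoters (9.52%), beside 1.75% of all promoters. Matches on both strands overlap where the letters are GCGCATGCGC.

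Ndufa8, -9 to -1, chr2:36049331-36049355, - strand: gctggagaCGCATGCGCagatggta
Ndufa11, -60 to -51, chr17:56717694-56717719, + strand: tgcactgcGCGCATGCGCgcacgcct
Ndufaf4, -113 to -104, chr4:24897962-24897987, + strand: agatgtctGCGCATGCGCctgtgcgg
Ndufaf5, 17 to 26, chr2:140170654-140170679, + strand: tcccgttgGCGCATGCGCctaataga

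The 250 bases before the start site of Ndufa11 are given as the 1 promoter that holds an NRF1-type motif together with the cyclic AMP response element TGACGTCA, both in capitals.

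Ndufa11, chr17:56717512-56717761, + strand: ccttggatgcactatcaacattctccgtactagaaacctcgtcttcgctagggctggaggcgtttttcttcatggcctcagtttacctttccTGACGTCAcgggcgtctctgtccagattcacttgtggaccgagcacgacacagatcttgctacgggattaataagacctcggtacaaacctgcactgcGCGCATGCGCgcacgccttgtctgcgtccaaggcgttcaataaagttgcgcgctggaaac

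The response element was found in 3 of 42 member promoters (7.14%), beside 1.79% of all. The SP1-type motif GGGGCGGGG was in 6 (14.3%, beside 11.4%), the ETS-type motif CCGGAAGT in 1 (2.38%, beside 3.89%) and the motif TNAAGGTCA of oestrogen-related receptors in 1 (2.38%, beside 1.28%). A match describes letters in the sequence, and binding was not measured in these libraries.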

How the data were processed

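Per the submitters' processing notes, reads were trimmed with Trim Galore and aligned with STAR 2.7 to GRCm38. For each of the 17 libraries the authors deposited a table of raw counts by Ensembl gene ID. Which program counted the reads, with which annotation release and strand setting, and how duplicates were treated, is not given in the sources used here. Each deposited table held 54838 gene rows and 5 footer entries of reads assigned to no gene (37.7% to 76.2% of a library's entries), which were kept apart. GENCODE M21 named 54723 of the IDs.

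All libraries were fitted together, by label group, with edgeR 4.0.16 in R 4.3.3 (TMM factors, filterByExpr with a minimum count of 10, robust quasi-likelihood test, two-sided, no covariate). Adjusted p-values are Benjamini-Hochberg over 24523 genes, called below 0.05. CPM values carry TMM factors. The procedure was tested on simulated data. Alternatives were other scalings, no low-count filter, a replicate block, pairs of groups alone, DESeq2 1.42.0, limma-voom (limma 3.58.1) with sample weights, each library left out, and settings with a transcript-length trend.

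Counts of libraries of the same group differed by a chi-square of at least 18.2 per degree of freedom, so within a group none was a resequencing of another. Libraries of different groups were not compared in this way, and whether libraries shared a mouse was not tested.

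Genes named in each of the first 3 comparisons were the core subunits (1 is not reported here), the member of smallest p in each role and any called member, besides the 3 highest and 3 lowest members by level and Ndufa4. Of other complex I and respiratory chain lists, Dmac1, Uqcrfs1 and mt-Nd2 were chosen after their values were seen. The members, lists and comparisons were chosen with earlier results of these data known.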

Additional observations from a re-analysis of the deposited data

Results flagged for a closer look

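Across the summed and named values, 66 groups of 4 or 5 libraries were checked for a library far from the others of its group, and 23 such values were found. Chance gives about 1 in 20 groups where groups are independent. These were not, since the values come from the same libraries and most members varied together, so that rate cannot be set against this count. Of the 23, 10 belonged to young control 3, 10 to old Mito-Q 3, 2 to young CCCP 3 and 1 to young CCCP 1. The old controls, a group smaller than 4, were not checked, so the tally says nothing about them.

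In young control 3, the summed Nduf level was 10450 CPM, against 3915 to 4744 in the other young controls, and the summed level of complex I genes of mitochondrial DNA was 11500 CPM, against 2012 to 2684. Single members high in that library were Ndufa4 at 1263 CPM, Ndufa13 at 590.3, Ndufa3 at 582.0, Ndufa7 at 504.6, Ndufs8 at 451.3, Ndufb11 at 239.3, Ndufb6 at 153.4 and Ndufab1 at 98.6 CPM.

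In old Mito-Q 3, the summed Nduf level was 8976 CPM, against 4839 to 5681 in the other Mito-Q libraries, and the mitochondrial DNA genes summed to 5918 CPM, against 2415 to 2891. Single members high there were Ndufa4 at 775.4 CPM, Ndufv2 at 503.3, Ndufa7 at 484.2, Ndufa3 at 397.6, Ndufa13 at 376.4, Ndufs4 at 243.2, Ndufa6 at 239.4 and Ndufab1 at 89.7 CPM.

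In young CCCP 3, Ndufa3 at 238.9 and Ndufs7 at 279.2 CPM stood high. In young CCCP 1, Ndufa6 stood low at 52.3 CPM, against 76.1 to 84.8.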

How the results depend on the processing

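Of 81 recomputed counts of called members, 69 stayed the same and 12 moved; of 81 recomputed medians, 75 moved by less than 1 SD between libraries and 6 by more. For age, 0 members called by edgeR became 3 with DESeq2, 37 with limma-voom and sample weights (36 higher and 1 lower), 7 without old control 1 and young CCCP 3, 35 without those and young control 3, and 9 with a length offset as well, and 0 to 4 with 1 library left out. The age median of 0.63 became 1.24 with limma-voom, -0.06 with the length offset and 1.5 without the 3 libraries, and ran from 0.34 to 1.17 with 1 library left out. For Mito-Q against old controls the counts were 17, 1, 13 and 2 under limma-voom, the 2-library, the 3-library and the 3-library length settings. Its median was -0.12 with the length offset, and -0.97 to -0.21 with 1 library left out. For CCCP, 1 member was called without the low-count filter, and the median ran from -0.66 to -0.10. For old Mito-Q against young controls the median was 0.58 without the 3 libraries and -0.14 to 0.59 with 1 left out. No single library left out gave a call in the last 3 comparisons.

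Some estimates of single members changed sign, among them those of Ndufs3 and Ndufs8 for age, at 0.64 and 0.58 without the length offset. Ndufv1, for age, was at -0.01 with the length offset, at -0.03 with that and without the 3 libraries, and ran from -0.15 to 0.51 with 1 library left out. For Mito-Q it was at -0.03 with DESeq2 size factors and with DESeq2, -0.11 with upper-quartile factors, -0.14 with limma-voom, -0.21 and -0.24 without the 2 and the 3 libraries, 0.00 in the 3-library length setting, and -0.26 to 0.40 with 1 left out. For CCCP it was at -0.05 with limma-voom, -0.17 and -0.18 in the 3-library settings, and -0.10 to 0.50 with 1 left out. With the length offset Ndufa4, Ndufs3 and Ndufs8 were at -0.41, -0.17 and -0.26 for age, and Ndufs3 at 0.08 for Mito-Q. Ndufa4 ran from -0.08 to 1.19 for age with 1 library left out. Ndufab1 under CCCP was at 0.09 with limma-voom, 0.16 and 0.00 in the 3-library settings, and -0.52 to 0.08 with 1 left out. The cause of these shifts was not tested.

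Correlations of deviations between same-numbered libraries ran from -0.114 to 0.122, and not every library matched its own number best. Old control 3, young CCCP 3 and old Mito-Q 3 each matched young control 3 best among young controls, at 0.122, 0.0422 and 0.0764. Libraries of other numbers, old control 2 and old Mito-Q 1, also matched young control 3 best, and old Mito-Q 4 matched young control 4 best. Among old controls, old Mito-Q 3 matched old control 1 best, and old Mito-Q 1 and 2 matched old control 2 best. Whether libraries of the same number shared anything else is not given in the sources used here. With the replicate number as a block, the medians were 0.70, -0.42, -0.36 and 0.23 in the 4 comparisons, with 0 members called, and 404, 130, 168 and 40 genes called in all. Upper-quartile factors shifted the median of all genes from 0.16 to 0.28 for age and from -0.12 to -0.25 for Mito-Q. There the medians over members were 0.70 and -0.71.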

Other observations

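Of the 5 genes with an Nduf symbol that GENCODE M21 does not class as protein coding, Ndufb1-ps, annotated as a noncoding RNA of a shared promoter, had levels like those of coding members. It reached 51.1, 71.6, 234.3 and 42.5 CPM in young controls 1 to 4 and 74.3, 159.6 and 148.4 CPM in old controls 1 to 3. Its reads per library ran from 293 to 1077, and its log2 fold changes were 0.35 ± 0.52 for age, -0.64 ± 0.50 for Mito-Q and -0.66 ± 0.46 for CCCP, none called by edgeR (adjusted p = 0.841, 0.742 and 0.653). Ndufab1-ps, a processed pseudogene, averaged 6.71 ± 2.87 CPM in young controls (SD, n = 4), 2.12 ± 1.04 in young CCCP (n = 5), 14.03 ± 5.27 in old controls (n = 3) and 8.60 ± 3.96 in old Mito-Q (n = 5). How reads of Ndufab1 that also match this copy were counted was not tested. The other 3 pseudogenes, Ndufa11b, Ndufb4c and Ndufs6b, had at most 29 reads in a library.

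Ndufb2, a distal membrane arm subunit, read 107.3 CPM in young CCCP 3 and 7.05, 7.71, 16.1 and 10.9 CPM in CCCP libraries 1, 2, 4 and 5. Part of its exons, 145 bases, overlaps Gm42420 on the same strand. This gene was singled out after its values were seen.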
